A study of Homo sapiens with 56 samples.

Results

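The interferon-stimulated genes described here are 53 genes of the 21595 named genes in the deposited expression table, picked by gene symbol. They were chosen because the difference between 2 cultures of the mantle cell lymphoma line MINO, named MINO-VR and MINO-P, was wide in some treatments and small in others, so that difference is given below as a description, with no test. All 53 symbols were found in the table.

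Interferons are secreted proteins that bind receptors at the cell surface. The receptor-bound kinases JAK1 and TYK2 phosphorylate STAT proteins, of which STAT2 joins IRF9 in a complex that enters the nucleus and binds a short repeated promoter element. The genes switched on in this way encode proteins that sense viral RNA, block translation or membrane entry, attach the ubiquitin-like protein ISG15 to other proteins, or amplify the signal itself, and B cells, the origin of mantle cell lymphoma, carry the pathway.

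The study sequenced RNA of established human mantle cell lymphoma lines in 56 libraries: 15 of MINO-P, 13 of MINO-VR, 15 of JEKO-1 and 13 of Z138. What P and VR stand for is not given in the sources used here. The treatment codes of the labels are CON (5 libraries, taken as untreated because the design text names untreated samples), CLF (6), BTZ (6), IBR (11), IBR_CLF (8), BTZ_CLF (4), YM155 (4), S63845 (6), IBR_YM155 (2), BTZ_YM155 (2), IBR_S63845 (1) and BTZ_S63845 (1). YM155 is a small molecule that lowers expression of BIRC5 (survivin), S63845 is an inhibitor of the survival protein MCL-1, and the design text combines them with inhibitors of the proteasome and of the kinase BTK; doses and times are not given in the sources used here. No group of line and treatment held more than 3 libraries, and the labels do not say whether libraries of a group are separate cultures, so p-values measure the spread between these libraries, which may be technical.

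Libraries held 5.52 to 21.6 M reads (median 16.0 M), as recovered from the steps between low values of the table. Mitochondrial transcripts took 1.91% to 80.5% of a library, with a median of 6.69%, and the JEKO-1 libraries with names from MCL1 to MCL10a had a median of 59.9%. The 6 B cell markers were present in every line, with median sums of 739 to 1369 CPM, while the T cell sums were at most 40.9 CPM and the defining T cell genes CD3E and CD2 had medians of 0 in both MINO cultures and JEKO-1. The 3 mantle cell lymphoma markers together were highest in Z138, with median sums of 2039 CPM (names ending in A) and 2609 CPM (names without it). Elsewhere their median sums were 742 to 1158 CPM. CD5, 1 of these 3 markers, had a median of 0 CPM in Z138. Levels below are CPM (counts scaled to the library total), and differences are on the log2(CPM + 1) scale, on which low genes appear to differ less than they do in CPM. Reads of close relatives (the IFIT, OAS, IFITM and GBP families, DDX60 and DDX60L, SAMD9 and SAMD9L) and of overlapping genes (CMPK2 and RSAD2, PARP9 and DTX3L, SP110 and SP140) may have been shared between them by the authors' counting, whose use of strand is not given in the sources used here.

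The promoters below show the sequence feature that these genes are known for and that the selection did not use. RefSeq promoters on GRCh38.p14 were found for 42 of the 53 genes, and the 250 bases before the start were searched on either strand for TTTC, any 2 bases and TTTC again (read as GAAA on the other strand), the core of the element bound by the complex that holds STAT2 and IRF9. It was present in 22 of the 42 promoters (52.4%), against 1061 of all 35116 promoters of that length (3.02%). The longer run of 3 TTTC with 2 bases between each, whose every match holds 2 overlapping matches of the shorter element, was present in 4 of the 42 (9.52%) and in 44 of all promoters (0.125%). A match is a description of the letters, not a binding site. The 120 bases before the start are printed 5′ to 3′ for 5 genes that turn up throughout the results and for MX1, whose window had no match; capitals mark each match.
IFI44L (chr1:78620328-78620447, plus strand): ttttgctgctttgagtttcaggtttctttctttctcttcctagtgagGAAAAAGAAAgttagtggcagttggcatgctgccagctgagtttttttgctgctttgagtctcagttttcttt
IFI6 (chr1:27672193-27672312, minus strand): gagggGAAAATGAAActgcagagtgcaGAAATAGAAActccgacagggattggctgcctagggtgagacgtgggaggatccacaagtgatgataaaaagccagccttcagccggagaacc
IFIT1 (chr10:89392503-89392622, plus strand): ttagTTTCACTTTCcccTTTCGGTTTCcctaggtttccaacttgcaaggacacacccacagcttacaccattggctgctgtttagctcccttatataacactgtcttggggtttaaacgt
ISG15 (chr1:1013377-1013496, plus strand): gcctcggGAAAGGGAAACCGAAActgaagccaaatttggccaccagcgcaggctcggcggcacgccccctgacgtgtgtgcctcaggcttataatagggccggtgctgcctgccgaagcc
DDX60 (chr4:168318753-168318872, minus strand): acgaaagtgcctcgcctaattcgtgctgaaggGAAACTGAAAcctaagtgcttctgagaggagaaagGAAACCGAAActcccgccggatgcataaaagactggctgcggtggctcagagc
MX1 (chr21:41420438-41420557, plus strand): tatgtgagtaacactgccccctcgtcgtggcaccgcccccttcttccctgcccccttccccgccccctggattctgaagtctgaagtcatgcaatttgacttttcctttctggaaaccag

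The genes lie in groups along the genome. With a gap of at most 500 kb, 31 of the 53 fell in 12 clusters, spread with the other genes over 15 chromosomes. The 4 IFIT genes share chr10:89283694-89421606, the OAS1, OAS3 and OAS2 genes share chr12:112905856-113011724, and IFI44L (chr1:78619902-78646146) lies next to IFI44. These are the coordinates of the deposited table (hg38, per the submitters' processing notes). Neighbours were not always alike: averaged over 9 treatments, MINO-VR exceeded MINO-P by 0.92 in RSAD2 and by 0.05 in CMPK2, which overlaps it.

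Across the 56 libraries the genes varied largely as a block. The correlation of each gene with the mean of the other 52 genes had a median of 0.79, and 25 of 53 were above 0.8; this is a description over libraries that share lines and depth. IFI6, which encodes a small mitochondrial and endoplasmic reticulum protein, followed the others most closely (0.97), then IFI44L (0.96), XAF1 (0.95) and DDX60 (0.93). SP100 and SP110, nuclear body proteins, had the lowest correlation (-0.15 each), and LAMP3 had -0.03. Within Z138 alone the median was 0.93, with 44 genes above 0.8, and SP100 reached 0.95 there.

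**Figure D1:**
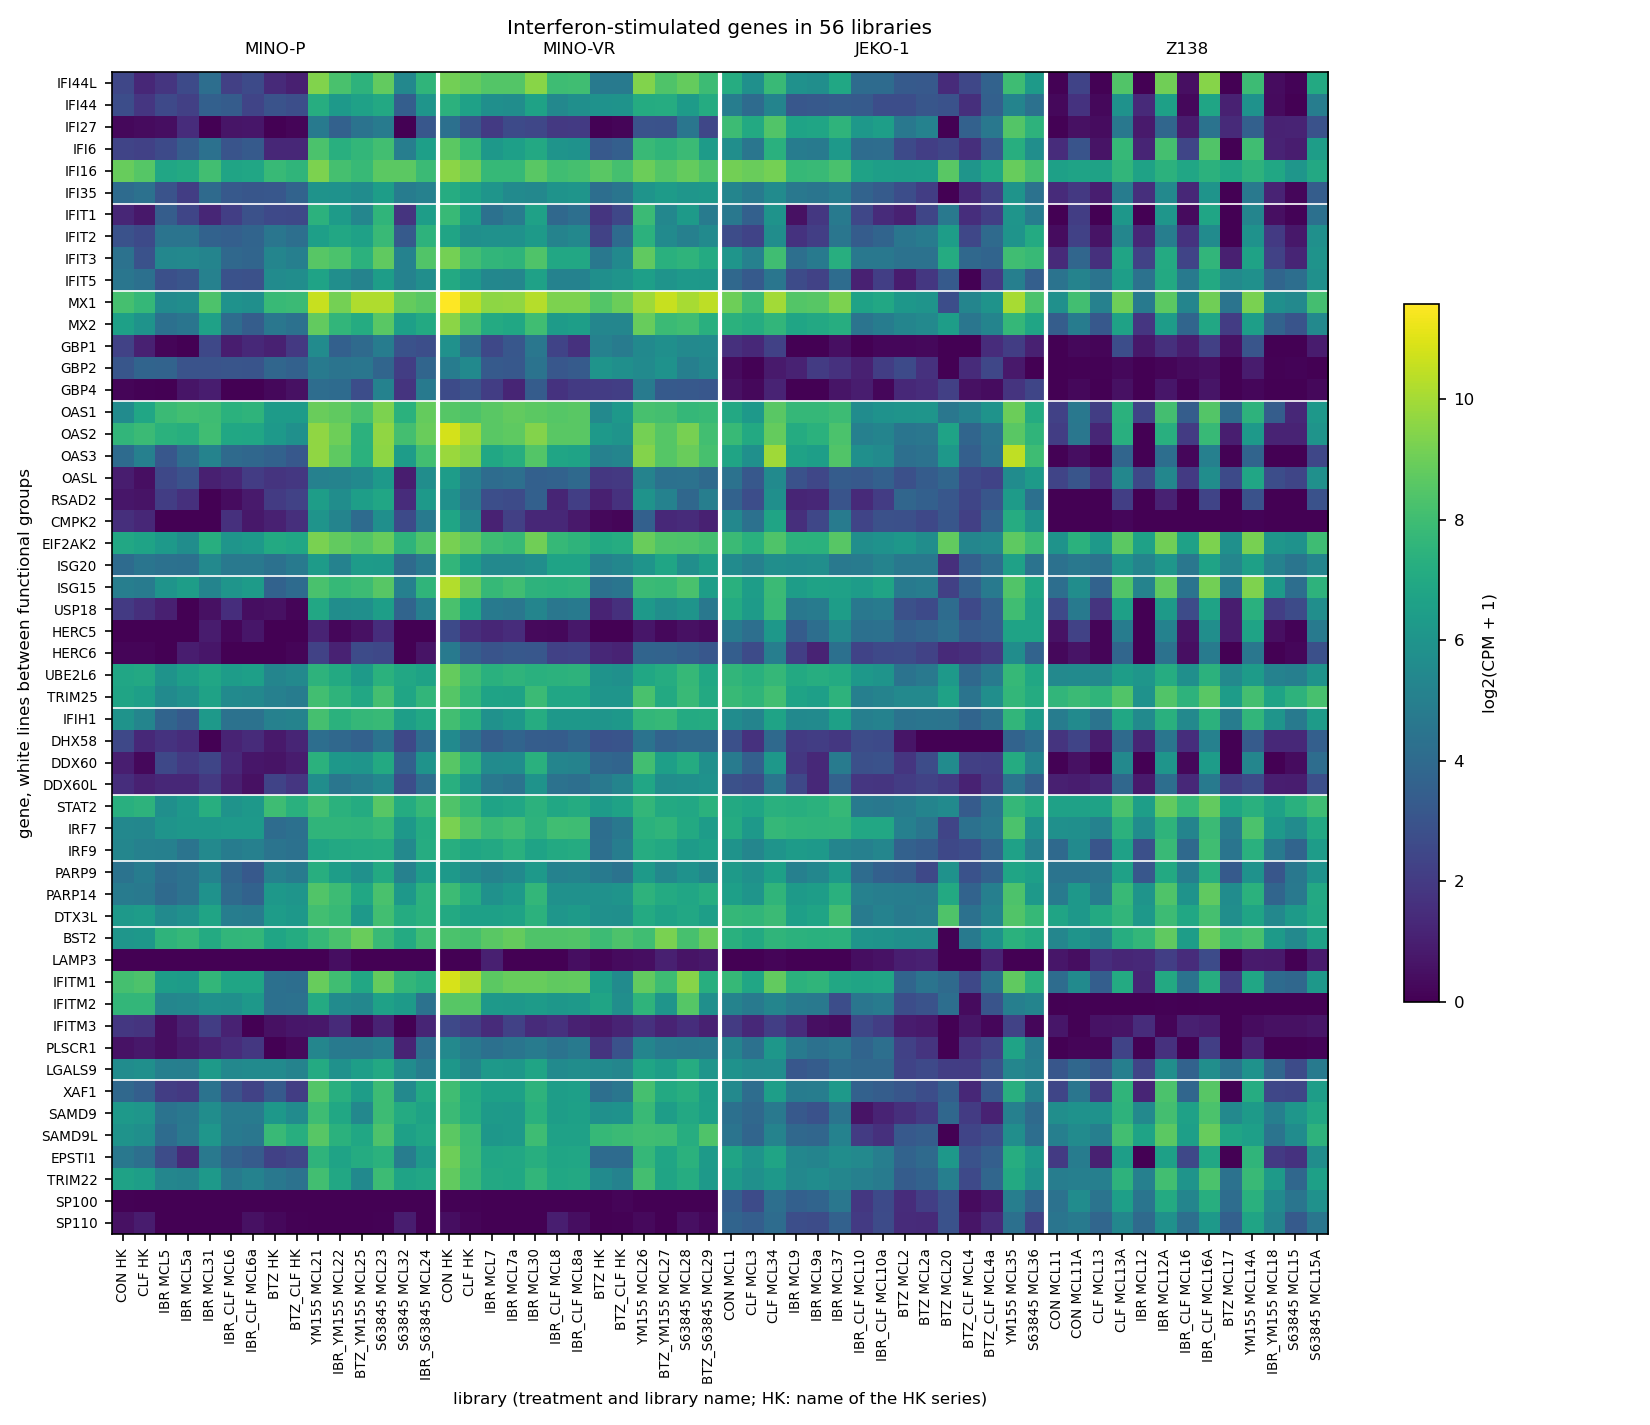
Level of each of the 53 genes (rows, grouped by function, with white lines between groups) in each of the 56 libraries (columns, by line and treatment), as log2(CPM + 1). Most rows brighten together in the same libraries, while SP100 and SP110 are dark in all 28 MINO-P and MINO-VR libraries.

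The mean over the 53 genes, on the log2(CPM + 1) scale, gives the level of the whole group in a library. In MINO-P it was 3.93 in CON, 3.78 in CLF, 3.54 in BTZ and 3.50 in BTZ_CLF, 3.44, 3.49 and 4.17 in IBR, and 3.48 and 3.45 in IBR_CLF. The 5 MINO-P libraries with YM155 or S63845 named MCL21 to MCL25 had 5.71 to 6.66, above all of these, and the other S63845 library, MCL32, had 4.49. In MINO-VR the mean was already 7.17 in CON, the highest value of the series, and 6.40 in CLF; it was 4.23 in BTZ, 4.39 in BTZ_CLF, 5.44, 5.53 and 6.05 in IBR, and 5.70 to 6.54 in the 4 libraries with YM155 or S63845. In both cultures the CON, CLF, BTZ and BTZ_CLF libraries have names that begin with HK, and all others begin with MCL. Between these sets, the drug and the name series cannot be told apart. In bulk samples, a smaller share of cells that express a gene and less RNA per cell cannot be told apart.

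In JEKO-1 the mean was 5.43 in CON, 4.77 and 6.22 in CLF, 4.49, 4.52 and 5.36 in IBR, 3.91 and 4.0 in IBR_CLF, 3.38, 3.44 and 3.58 in BTZ, 2.57 and 3.41 in BTZ_CLF, 6.49 in YM155 and 5.42 in S63845. The libraries with BTZ were the lowest of the line, all below every other JEKO-1 library. In Z138 it was 2.58 to 3.16 in the 7 libraries whose name ends in a number, and in those whose name ends in A it was 3.60 in CON and 4.91 to 6.26 under treatment.

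**Figure D2:**
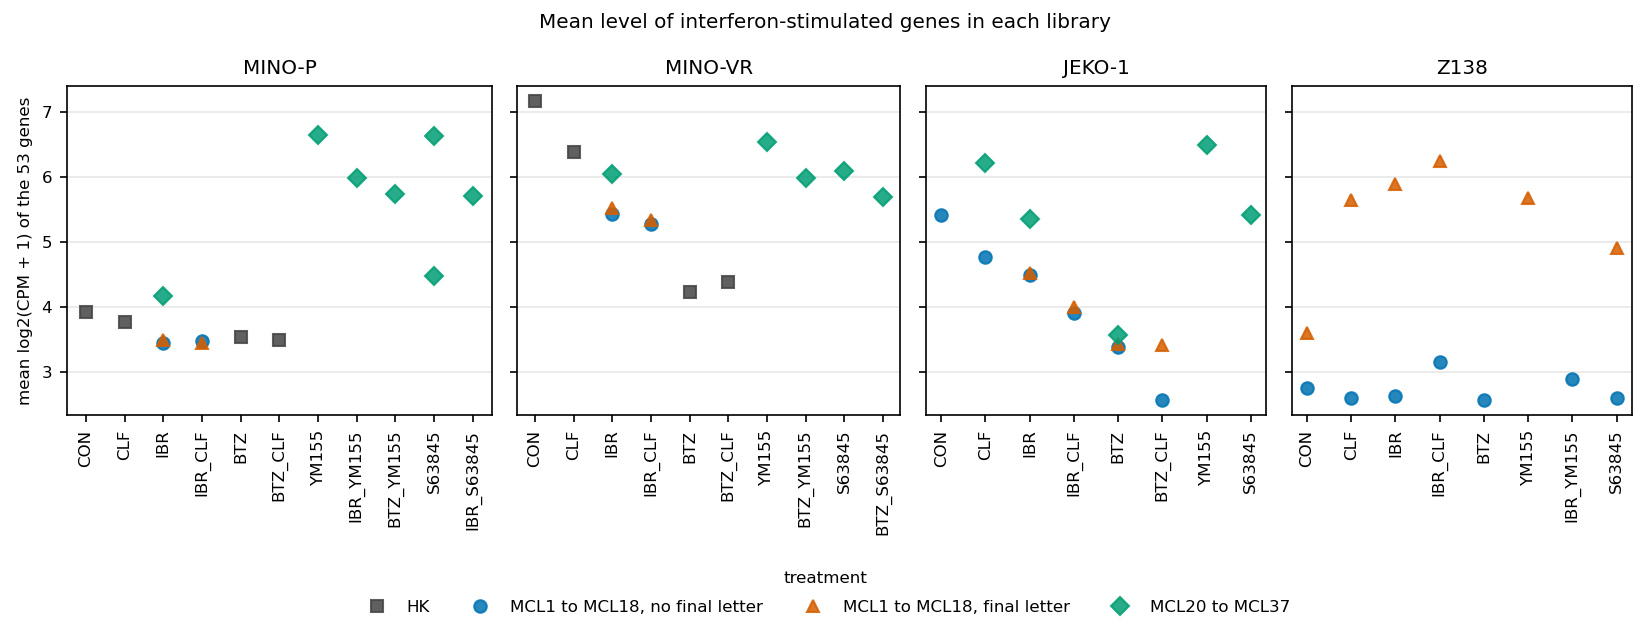
Mean log2(CPM + 1) of the 53 genes in each library (points), by treatment, in 1 panel per line; the marker shows the series and the end of the library name. MINO-VR CON has the highest value, 7.17, MINO-P CON has 3.93, and the treated Z138 libraries ending in A, at 4.91 to 6.26, lie above all Z138 libraries without the letter, at 2.58 to 3.16.

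The MINO-VR and MINO-P cultures were compared in the 9 treatments that both have. In CON, with 1 library each, 45 of the 53 genes were higher in MINO-VR by more than 1, and the median difference was 3.06; 4.84% of all genes passed the same mark. That share is printed for reference only, since the genes were chosen on this contrast. The median difference was 2.27 in CLF (43 genes above 1, against 4.04% of all genes), 1.84 in IBR (39 genes, 4.27%) and 1.78 in IBR_CLF (41 genes, 6.91%). It was 0.64 in BTZ (18 genes, 8.42%), 0.60 in BTZ_CLF (21 genes, 5.52%), 0.52 in S63845 (15 genes, 4.23%) and 0.34 in BTZ_YM155 (10 genes, 7.65%). In YM155 it was -0.11, with 2 genes above 1, 3 below -1 and 7.65% of all genes above 1.

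**Figure D3:**
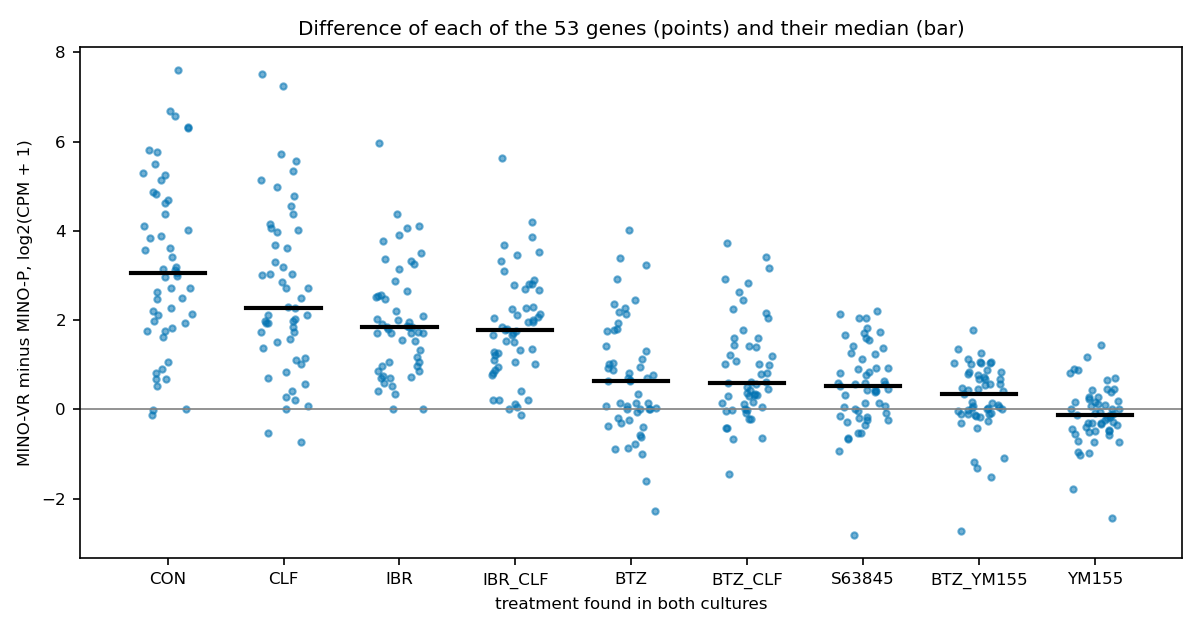
Difference MINO-VR minus MINO-P on the log2(CPM + 1) scale for each of the 53 genes (points) in the 9 treatments both cultures have, with the median as a bar. The medians run from 3.06 in CON to -0.11 in YM155.

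The treatments with a small median difference reached it from different sides, with means over the 53 genes of 3.54 and 4.23 in BTZ and of 6.66 and 6.54 in YM155 (MINO-P and MINO-VR). The CON and BTZ libraries have HK names and the IBR and YM155 libraries MCL names, so drug and name series cannot be told apart between them. IFI44L, a cytoplasmic protein of the IFI44 family, was at 4.49 CPM in MINO-P CON and 560 CPM in MINO-VR CON. In YM155 it was at 660 CPM in MINO-P and 668 CPM in MINO-VR, so both cultures were high. In BTZ it was at 1.59 CPM in MINO-P and 26.4 CPM in MINO-VR, both lower than MINO-VR CON, but its own difference was still 3.40, against the median of 0.64 for the 53 genes. In IBR, the 3 MINO-P libraries had 2.46, 5.08 and 17.4 CPM and the 3 MINO-VR libraries 355, 355 and 739 CPM, with no overlap.

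Among the dynamin-like GTPases that trap viral particles, MX1 was at 285 CPM in MINO-P CON and 3059 CPM in MINO-VR CON. In YM155 the order was the other way, with 1568 CPM in MINO-P and 953 CPM in MINO-VR. MX1 in IBR was at 45.6, 50.8 and 324 CPM in MINO-P and at 782, 802 and 1234 CPM in MINO-VR, without overlap. All 5 genes of the MX and GBP group were higher by more than 1 in MINO-VR CON, with a median difference of 2.98.

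The IFIT proteins bind viral RNA that lacks the host's cap methylation, and all 4 were higher by more than 1 in MINO-VR CON, with a median difference of 4.35. IFIT1 had 1.37 CPM in MINO-P CON and 224 CPM in MINO-VR CON. In BTZ it had 4.96 CPM in MINO-P and 2.49 CPM in MINO-VR, a difference of -0.77, and IFIT2 differed by -2.27. IFIT1 and IFIT2 were thus among the genes that were lower in MINO-VR with BTZ.

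The OAS enzymes make the messenger that activates RNase L, and RSAD2 (viperin) and CMPK2 make or supply an antiviral nucleotide. All 8 genes of this group were higher by more than 1 in MINO-VR CON, with a median difference of 4.37. The difference of CMPK2 spanned the widest range of the 53 genes over the treatments: it was 5.25 in CON and 4.02 in CLF, and -2.43 in YM155, -2.80 in S63845 and -2.73 in BTZ_YM155. In CPM, CMPK2 was at 1.93 in MINO-P CON, 111 in MINO-VR CON, 63.0 in MINO-P YM155 and 10.9 in MINO-VR YM155.

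ISG15 is the ubiquitin-like modifier itself, HERC5 its ligase and USP18 the protease that removes it. ISG15 was at 29.9 CPM in MINO-P CON and 1204 CPM in MINO-VR CON, and at 302 and 239 CPM in YM155. The 6 genes of this pathway were all higher by more than 1 in MINO-VR CON, with a median difference of 3.62. HERC5 stayed low in both cultures, at no more than 1.88 CPM in MINO-P and 5.15 CPM in MINO-VR, while it reached 106 CPM in JEKO-1.

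The 4 RNA sensors and their helicase relatives had the widest differences, with a median of 4.42 in CON. DDX60, a helicase that aids the sensor RIG-I, was at 0.936 CPM in MINO-P CON and 374 CPM in MINO-VR CON, a difference of 7.60, the largest of the 53 in CON. IFIH1 (MDA5), a sensor of long double-stranded RNA, was at 60.8 and 270 CPM. DHX58 was higher in MINO-VR in all 9 treatments, as were 11 other genes of the 53.

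The signal factors differed less. IRF7, which amplifies interferon production, was at 41.3 CPM in MINO-P CON and 609 CPM in MINO-VR CON (difference 3.85), and IRF9 at 38.5 and 150 CPM (1.94). STAT2 was at 157 and 331 CPM in CON, a difference of 1.07, and was lower in MINO-VR with BTZ, where MINO-P had 248 CPM and MINO-VR 81.0 CPM. Averaged over the 9 treatments, STAT2 had the lowest difference of the 53 genes, -0.09.

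Among membrane proteins the difference was smallest as a group, with a median of 0.91 in CON and 3 of 7 genes above 1. IFITM1, which blocks fusion of viral and cell membranes, was at 284 CPM in MINO-P CON and 1879 CPM in MINO-VR CON, and BST2 (tetherin), which holds budding virus at the membrane, at 66.6 and 312 CPM. IFITM3 differed by 0.68 and LGALS9, which encodes galectin-9, by 0.53. LAMP3 was at 0 CPM in CON of both cultures.

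The largest mean differences over the 9 treatments were those of IFI44L (3.95), DDX60 (3.56), DDX60L (3.02), IFI44 (2.57), IFI6 (2.54), USP18 (2.45), OAS3 (2.41), PLSCR1 (2.40), GBP1 (2.24), EPSTI1 (2.22), XAF1 (2.21) and HERC6 (2.20). The smallest were those of STAT2 (-0.09), SP110 (-0.05), SP100 (0.02), CMPK2 (0.05), DTX3L (0.11) and LGALS9 (0.19). The summed level of 5 myeloid marker genes also differed between the cultures, at 5.81 to 112 CPM (median 24.8) in MINO-P and 28.3 to 135 CPM (median 76.1) in MINO-VR, with 3 of 5 genes reaching 1 CPM in at least 2 libraries and the receptor CSF1R at a median of 0 CPM in both. Their part in the result was not tested.

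In MINO-P, the high libraries with YM155 or S63845 and the lower ones also differ in library names, and the 2 S63845 libraries stood apart. IFI44L was at 440 CPM in the S63845 library named MCL23 and at 42.0 CPM in the one named MCL32. IFIT1 was at 188 and 2.34 CPM and RSAD2 at 114 and 1.80 CPM. Of the 50 genes compared between these libraries, 0 were higher in MCL32 and 44 were lower by more than 1, against 15.5% of all genes. Their median was -1.93, and the median over all genes was -0.24. Both libraries carry the same labels.

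IFNB1, the gene of interferon beta, was highest in MINO-P in some libraries with YM155 or S63845, and in MINO-VR in CON and CLF. It had 65 reads (3.06 CPM) in MINO-P S63845 MCL23 and 0 reads in MCL32, 20 reads in MINO-P YM155, 16 in BTZ_YM155, and 5 each in IBR_YM155 and IBR_S63845. In MINO-P CON it had 1 read, in CLF 3 reads, and in BTZ, BTZ_CLF, IBR and IBR_CLF 0 reads. MINO-VR CON, with the highest level of the 53 genes, had 7 IFNB1 reads (0.328 CPM), and MINO-VR CLF had 6. The other high MINO-VR libraries had few. IFNB1 had 1 read in YM155, 0 in BTZ_YM155, 1 in S63845 and 4 in BTZ_S63845, where the means over the 53 genes were 5.70 to 6.54. It had 0 reads in the MINO-VR IBR library MCL30, with a mean of 6.05. Over the series IFNB1 reached 1 CPM in 6 libraries, and IFNA2, IFNG and IFNL1 in none; 3 reads equal 0.139 to 0.543 CPM in these libraries, so differences at this depth rest on few reads.

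S63845 was tested against IBR in a model over the 28 MINO-P and MINO-VR libraries with a mean for each group of line and treatment, averaged over the 2 cultures. The genes were chosen on a difference between the cultures that is wide in IBR, so the IBR libraries are not independent of that choice. The shares of all genes are therefore printed for reference only. The same holds for IBR_CLF against IBR below. Of the 51 genes tested, 13 rose with S63845 and 0 fell, by limma at a Benjamini-Hochberg adjusted p under 0.05; of all genes 15.2% rose and 5.41% fell (20.7% in either direction). The median of the 51 genes was 1.23, against 0.16 for all genes, a shift that became 0.08 without mitochondrial genes and -0.03 with size factors. SP100 and SP110 did not pass the filter on low values in these cultures.

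USP18 had the largest of these changes. It was at 87.9 and 12.4 CPM in the MINO-P S63845 libraries against 1.00, 0 and 0.427 CPM in MINO-P IBR, and at 63.4 CPM in MINO-VR S63845 against 26.6, 23.1 and 37.6 CPM in MINO-VR IBR. In each culture, all S63845 libraries lay above all IBR libraries, and the difference was 2.86 (SE 0.53, limma adjusted p = 0.0042, Benjamini-Hochberg). OAS3 rose by 2.64 (SE 0.65), GBP1 by 2.51 (SE 0.67), IFI6 by 2.20 (SE 0.59), XAF1 by 2.12 (SE 0.62) and IFI44L by 2.12 (SE 0.69). IFITM2 rose by 1.61 with the smallest error (SE 0.16); the others were CMPK2, DDX60L, IFI35, SAMD9, IFI16 and IFITM1.

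By group, 4 of the 6 IFI genes tested rose, 2 of the 8 OAS and nucleotide enzymes, 2 of the 7 membrane proteins and 2 of the 5 other effectors, while none of the 4 IFIT genes passed the test. Of 37 pathway genes tested outside the 53, 5 rose and 0 fell, against 15.2% and 5.41% of all genes, so the number that rose is near that share. Those that rose included TLR9 (2.79), SAMHD1 (1.65), RNASEH2A (1.43) and IFNGR2 (0.53). The calls depended on the libraries. Except where all genes are named, the counts that follow for altered fits come without the share of all genes called in the same fit. They show that dependence only. With the letter that ends library names as a block, 6 genes were called (USP18, OAS3, IFI6, IFITM2, SAMD9 and IFI16), and with the libraries that differ only by that letter averaged, 0 were called of these and of all genes.

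Leaving out the S63845 library MCL23 of MINO-P left 8 calls, of which USP18, OAS3, IFI6, IFITM2, SAMD9 and CMPK2 were higher and IFIT2 (-0.95) and OAS1 (-0.77) lower; with all libraries, IFIT2 had 0.20 and OAS1 -0.31, and neither was called. Leaving out the other one, MCL32, gave 34 calls, all higher. Without the IBR library MCL31 of MINO-P there were 29 calls and without MCL30 of MINO-VR 24, and without each of the other IBR libraries, MCL5, MCL5a, MCL7 and MCL7a, 6 to 8, all of them higher.

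IBR_CLF against IBR in the same model gave 0 calls among the 51 genes, where limma called 1.51% of all genes (1.25% higher and 0.264% lower). At an unadjusted p under 0.05 there were 3 genes, DTX3L (-0.93, SE 0.27), IFIT3 (-1.20, SE 0.52) and MX2 (-1.16, SE 0.50), and the median of the 51 was -0.32 against 0.02 for all genes.

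Z138 libraries fall into 2 sets by name: 7 whose name ends in a number and 6 whose name ends in the letter A, which the labels do not explain. CON, IBR, CLF, S63845 and IBR_CLF have 1 library in each set. IFI44L was at 0 to 0.402 CPM (median 0.0624) in the 7 libraries without the letter, at 4.01 CPM in CON with the letter, and at 130 to 717 CPM (median 350) in the 5 treated libraries with the letter. The treated libraries with the letter lay above all others for this gene whatever the drug.

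The same held for most of the genes. MX1 was at 20.9 to 54.5 CPM (median 37.0) without the letter, 272 CPM in CON with it and 277 to 613 CPM (median 515) in the treated libraries with it. ISG15 was at 11.6 to 78.8 CPM (median 21), 49.8 CPM and 177 to 640 CPM (median 424) in the same order. RSAD2 was at 0 CPM in all 7 libraries without the letter and in CON with it, and at 1.16 to 6.58 CPM in the treated libraries with it. For 37 of the 49 genes that passed the filter on low values in Z138, every treated library with the letter lay above every library without it, against 3.43% of the 14028 genes. Some of the 49 passed only through libraries with the letter. Among them, IFI44L, IFIT1, OAS3, DDX60 and RSAD2 had at most 0.402, 0.369, 0.134, 0.302 and 0 CPM without it. For such genes the filter itself favours this order, so the count is a description.

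Within pairs of the same treatment, the median difference of the 49 genes between the library with the letter and the one without was 0.66 in CON, 3.32 in IBR, 3.10 in CLF, 2.30 in S63845 and 2.81 in IBR_CLF. In the 4 treatments other than CON, 38 of the 49 genes were above 1 in every pair, against 0.927% of all genes; with CON included, 20 of the 49 were, against 0.378%. The filter on low values bears on these counts in the same way. The split by the letter was noticed in these values, so it is given as a description, without a test. The largest mean differences were those of IFI44L (7.12), IFI6 (5.43), OAS2 (5.31), IFIT1 (4.99), IFI44 (4.76), XAF1 (4.72) and OAS1 (4.68).

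**Figure D4:**
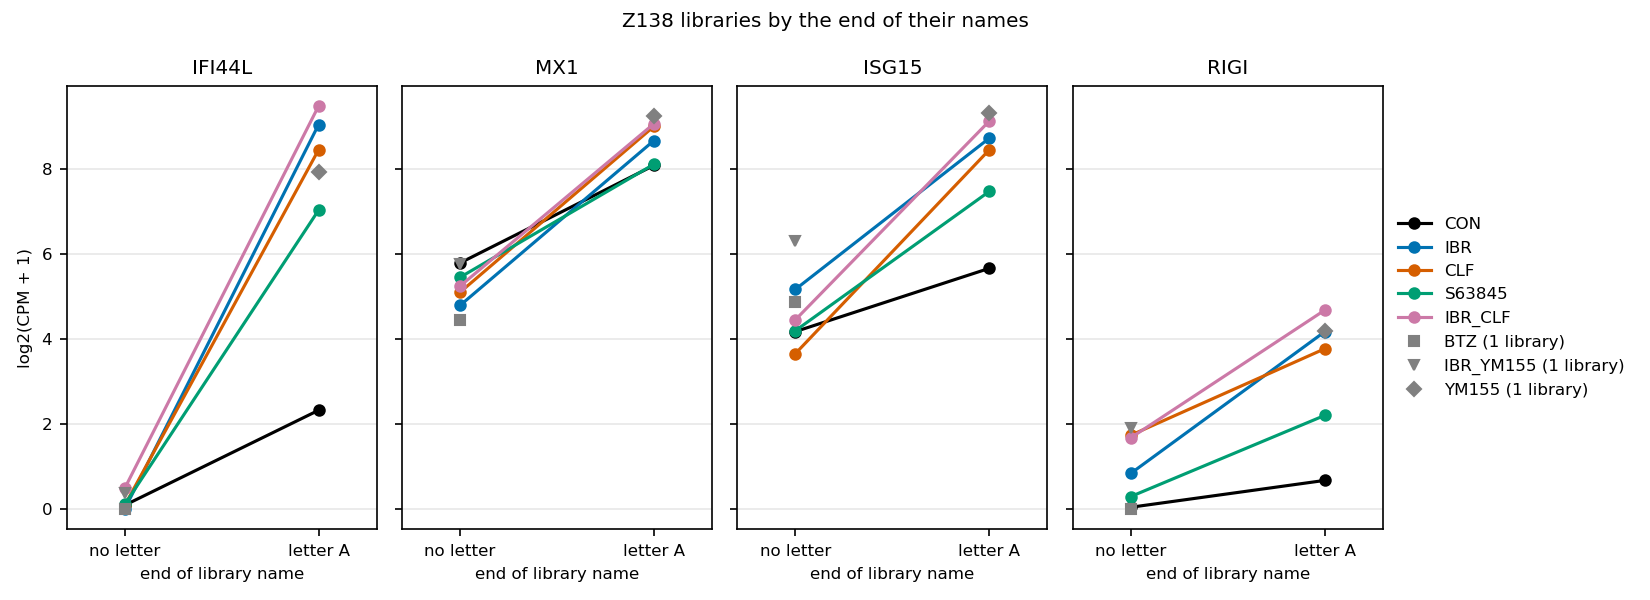
Level, log2(CPM + 1), of 4 genes in Z138 libraries without and with the final letter A; lines join the libraries of 1 treatment, and grey points are treatments with 1 library. IFI44L runs from 0 to 0.402 CPM without the letter to 130 to 717 CPM in the treated libraries with it.

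The rest of the 49 moved less. IFITM3 was at no more than 1.74 CPM in any Z138 library, with a mean difference of -0.38, and LAMP3 (0.45), IFI16 (0.66) and DTX3L (0.74) had the next smallest. Of the pathway genes, RIGI, which encodes the RNA sensor RIG-I, had the largest mean difference (2.18), above 1 in 4 of 5 pairs. RIGI values were uneven even between close libraries of other lines, which limits this difference. They were 0.0132 and 3.84 CPM in the MINO-P IBR libraries MCL5 and MCL5a. In the JEKO-1 BTZ libraries MCL2 and MCL2a they were 4.03 and 0.00489 CPM. IFNB1 had 4 reads in IBR, 3 in CLF, 1 in YM155, 2 in S63845 and 7 in IBR_CLF with the letter, 0 in CON with it, and 0 without the letter except for 1 read in IBR_YM155. The mitochondrial share was 3.82% to 5.94% in the treated libraries with the letter and 3.47% to 8.62% in those without, and depth overlapped as well. The summed level of the 5 myeloid markers was 0.345 to 5.66 CPM with the letter and 0.220 to 9.06 CPM without. The 5 epithelial or stromal markers, of which 3 reached 1 CPM in at least 2 libraries of either set, summed to 11.1 to 56.9 CPM (median 24.6) with the letter and 34.4 to 78.1 CPM (median 55.1) without, with COL1A2 at a median of 0 CPM in both. The part of these markers in the split was not tested.

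Relative to CON of the same set, the drugs looked different in the 2 sets. With the letter, the median of the 49 genes was 1.78 in CLF, 2.20 in IBR, 2.49 in IBR_CLF, 1.13 in S63845 and 2.04 in YM155. Without it, the median was -0.02 in CLF, -0.07 in IBR, 0.32 in IBR_CLF, -0.14 in S63845, -0.09 in BTZ and 0 in IBR_YM155. In a model over the 13 Z138 libraries with treatment alone, 0 of the 49 genes were called for IBR against CON (0% of all genes, by limma; 2 genes at an unadjusted p under 0.05), and 0 for S63845 against CON (0% of all genes; 0 at an unadjusted p under 0.05). The 2 genes were BST2 (2.53, SE 0.86) and LAMP3 (1.19, SE 0.52). With the letter as a block, 3 of the 49 genes were called for IBR, BST2 (2.53, SE 0.38), SAMD9L (2.38, SE 0.47) and PARP14 (1.73, SE 0.34). Of all 14028 genes, 724 were called, a share near that of the 49, against 0 without the block. The block follows the split seen in these values. Its fit takes the IBR effect as equal in the 2 sets, where the medians above were 2.20 and -0.07.

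Single libraries of other lines also stood apart from others of the same labels. In JEKO-1, the CLF library named MCL34 was higher than MCL3 in all 53 genes, 31 of them by more than 1, against 5.31% of all genes. Their median was 1.40, and the median of all genes was -0.03. MX1 was at 249 and 1004 CPM and OAS3 at 54.3 and 979 CPM in these CLF libraries. The IBR library MCL37 was higher than the mean of MCL9 and MCL9a in 44 of the 53 genes, with a median of 0.82 (0.07 for all genes). In MINO-P, the IBR library MCL31 was higher in 39 of 50 genes (median 0.94, 0.17 for all genes), and in MINO-VR, MCL30 in 38 of 51 (median 0.67, 0.19 for all genes). The JEKO-1 BTZ library MCL20 did not follow. Against the mean of MCL2 and MCL2a, 31 of the 53 genes were higher, 22 of them by more than 1 (45.3% of all genes). Lower by more than 1 were 14 genes (19.2% of all genes), and the median of 0.50 was below that of all genes, 0.71.

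Pairs of names that differ only by a final a (8 pairs in JEKO-1, MINO-P and MINO-VR) were much closer. Their counts recovered from the table differed with a chi-square per degree of freedom of 4.09 to 9.64, where sampling noise gives 1, against 99.4 to 406 for other libraries of the same line and treatment and 57.6 to 344 for the Z138 letter pairs. They were kept as separate libraries, and averaging them was tried as an alternative. The BTZ_CLF pair of JEKO-1 was the exception for these genes, with a median difference of 0.86, where the other 7 pairs had 0.01 to 0.11. That pair, MCL4 and MCL4a, also differed beyond these genes. Mitochondrial transcripts took 80.5% and 65.5%, and the mean over all genes was 2.09 and 2.66.

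Between JEKO-1 and Z138, the levels were compared in a model over 28 libraries with line and treatment. By limma, 21 of the 53 genes were higher in JEKO-1 and 8 lower, against 16.0% and 33.5% of all 15719 genes (49.5% in either direction), so the total of 29 is near the share of all genes. The median of the 53 genes was 0.77, against -0.29 for all genes; that shift became 0.03 without mitochondrial genes and 0.01 with size factors, where 23 of the 53 were higher and 6 lower under each.

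OAS3 had the largest difference. Its lowest, median and highest levels were 10.5, 70.3 and 1397 CPM in JEKO-1 and 0, 0.134 and 32 CPM in Z138, a difference of 5.36 (SE 0.60, limma adjusted p = 2.9e-08, Benjamini-Hochberg). The lines overlapped only where Z138 libraries with the letter reached 32 CPM. IFI27, a mitochondrial membrane protein, was higher in JEKO-1 by 4.69 (SE 0.60), with 0, 104 and 352 CPM against 0.0624, 1.21 and 23.7 CPM, and the 0 was in the BTZ library MCL20.

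Some genes were close to absent in Z138 whatever the library. IFITM2 had 0.284, 24.3 and 37.6 CPM in JEKO-1 and at most 0.0635 CPM in Z138, without overlap, and was higher in JEKO-1 by 4.56 (SE 0.31). CMPK2 had 1.97, 7.58 and 141 CPM against at most 0.138 CPM, also without overlap, and was higher by 4.28 (SE 0.43). IFITM2, CMPK2, GBP2 and GBP4 passed the filter on low values only through JEKO-1. For these genes the filter itself favours a higher level in JEKO-1, in the count of genes called above as well. The share of all genes without overlap is not given here. PLSCR1, a phospholipid scramblase, was higher by 3.76 (SE 0.39) and OAS2 by 3.22 (SE 0.78).

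The genes lower in JEKO-1 included both SAMD9 relatives, which restrict poxvirus growth. SAMD9 had 0.542, 8.46 and 32.2 CPM in JEKO-1 and 31.3, 67.7 and 314 CPM in Z138, almost without overlap, a difference of -3.19 (SE 0.45), and SAMD9L differed by -3.11 (SE 0.51). IFIT5 (-2.36), SP100 (-2.24), SP110 (-1.76), LAMP3 (-0.96), STAT2 (-0.90) and TRIM25 (-0.78) were the others. By group, 5 of the 8 OAS and nucleotide enzymes were higher in JEKO-1 and none lower, and 4 of the 7 other effectors were lower and 1 higher.

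Of 37 pathway genes tested, 4 were higher and 17 lower in JEKO-1, against 16.0% and 33.5% of all genes. The median of all genes was itself -0.29 in this comparison. IRF8, a B cell and myeloid transcription factor, was higher by 3.87 (SE 0.24), with 41.3 to 402 CPM in JEKO-1 and 4.61 to 14.8 CPM in Z138. Those lower included the DNA sensor CGAS (-2.22), its adaptor STING1 (-1.93), the receptor chains IFNAR1 (-0.98) and IFNAR2 (-1.16), and the kinases JAK1 (-1.51) and JAK2 (-1.26).

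BTZ against CON was tested across JEKO-1 and Z138 in the same model. By limma with Benjamini-Hochberg adjustment, 4 of the 53 genes fell and 0 rose, against 17.1% and 0.681% of all genes (17.7% in either direction). MX1 was at 68.1, 62.1 and 5.72 CPM in JEKO-1 BTZ against 522 CPM in JEKO-1 CON, and at 20.9 CPM in Z138 BTZ against 54.5 and 272 CPM in Z138 CON. All BTZ libraries lay below the CON libraries of their line, and MX1 fell by 3.34 on the log2 scale (SE 1.02, limma adjusted p = 0.0237).

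IFITM1 fell by 3.18 (SE 0.97), PLSCR1 by 2.37 (SE 0.74) and IRF7 by 2.17 (SE 0.68). IFITM1 was at 12.8, 21 and 15 CPM in JEKO-1 BTZ against 217 CPM in CON, and at 3.28 CPM in Z138 BTZ against 16.2 and 45.6 CPM. IFIT2 did not follow, with 22.2, 26.8 and 86.3 CPM in JEKO-1 BTZ against 5.42 CPM in CON, while in Z138 it was at 0 CPM in BTZ and 0.312 and 3.71 CPM in CON.

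The median of all genes was itself -0.65 in this comparison, and the median of the 53 genes was -0.96. Without mitochondrial genes the median of all genes was -0.18, with size factors it was -0.03, and under both 0 of the 53 genes were called. Mitochondrial transcripts took 67.6%, 67.5% and 9.92% of the 3 JEKO-1 BTZ libraries. Without the JEKO-1 CON library 0 genes were called, without the Z138 CON library ending in A 2, and without the BTZ library MCL20 9. Of 37 pathway genes, 0 rose and 13 fell, against 0.681% and 17.1% of all genes. Those that fell included TLR9 (-3.50), RNASEH2A (-2.71), IKBKE (-2.61), TYK2 (-2.10) and IRF1 (-2.09).

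YM155 against CON in the same lines gave 0 calls among the 53 genes, with 0.00636% of all genes called. The median of the 53 was 1.87 and 52 of 53 were positive, against a median of -0.02 for all genes. At an unadjusted p under 0.05 there were 18 of the 53 and 1151 of all 15719 genes. The smallest limma adjusted p of the 53 was 0.404 (Benjamini-Hochberg). RSAD2 was at 79.6 CPM in JEKO-1 YM155 against 11.6 CPM in CON, and at 6.58 CPM in Z138 YM155 against 0 and 0 CPM, with a difference of 3.01 (SE 0.96). IFI44L was at 250 CPM in JEKO-1 YM155 against 144 CPM in CON and at 242 CPM in Z138 YM155 against 0.0624 and 4.01 CPM, with a difference of 4.42 (SE 2.29). Each line has 1 YM155 library, and in Z138 it is one whose name ends in A. In JEKO-1 it is MCL35, while CON is MCL1. The CLF library next to it in name, MCL34, was higher than MCL3 in all 53 genes. The libraries MCL36 (S63845) and MCL37 (IBR) had means over the 53 genes of 5.42 and 5.36, against 5.43 in CON. The drug and the library set cannot be told apart here.

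The other treatments gave no calls among the 53 genes by limma. IBR against CON had 0 calls, with 0.503% of all genes called (0.210% higher and 0.293% lower), CLF against CON 0 calls, with 0%, S63845 against CON 0 calls, with 0%, and IBR_CLF against IBR 0 calls, with 0.00636%. At an unadjusted p under 0.05 there were 0, 0, 0 and 1 genes, the last being IFITM3 (0.91, SE 0.38). In CLF 52 of the 53 genes were positive, with a median of 0.65, against 0.06 for all genes. That median was 0.23 to 1.27 when each CLF and CON library was left out in turn, with 0.33 without the Z138 library MCL13A and 0.41 without the JEKO-1 library MCL34. The other CLF library of each line had a mean over the 53 genes below its CON libraries, 2.60 against 2.75 and 3.60 in Z138 and 4.77 against 5.43 in JEKO-1. The difference between JEKO-1 and Z138 in the IBR effect gave 0 calls (0% of all genes, 2 genes at an unadjusted p under 0.05), and that in the BTZ effect also gave 0 (0% of all genes, 6 genes), with LGALS9 (-5.44, SE 1.23) the 1 gene called under the block and 3 genes called without the BTZ library MCL20. These comparisons share the CON or IBR libraries.

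SP100 and SP110, the exceptions among the 53, were close to absent in both MINO cultures. SP100 was at 0 CPM in 24 of the 28 MINO libraries and at most 0.0999 CPM (2 reads) in the others, while JEKO-1 had 0.284, 6.58 and 29.7 CPM and Z138 16.9, 45.2 and 162 CPM as lowest, median and highest. SP100 thus lay below every JEKO-1 and Z138 library without overlap, which 0.345% of the 16498 genes compared did. It passed the filter on low values only through JEKO-1 and Z138. For such a gene the filter itself favours this order, so the share is printed for reference only. SP110 was at 0 CPM in 13 of the 28 libraries and at most 0.940 CPM, and overlapped the lowest JEKO-1 value of 0.568 CPM.

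These genes are neighbours on chromosome 2, with SP110 at chr2:230165186-230225730, SP140 at chr2:230203110-230313216, SP140L at chr2:230327184-230403733 and SP100 at chr2:230415942-230545607. SP140 was at 0 CPM in all 28 MINO libraries and SP140L in 26. JEKO-1 had medians of 3.17 CPM for SP140 and 2.50 CPM for SP140L, and Z138 19.0 and 9.15 CPM. Of the flanking genes, TRIP12, CAB39 and ITM2C were present in MINO, with medians of 308, 151 and 248 CPM. FBXO36 and SLC16A14, which lie between TRIP12 and SP110, were low there, with medians of 0.749 and 0.805 CPM and 0 CPM in 5 and 3 of the 28 libraries. They were low in the other lines too, with medians of 0.159 CPM (FBXO36) and 0 CPM (SLC16A14) in JEKO-1 and of 0.689 and 0 CPM in Z138. Copy number was not measured in these libraries.

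**Figure D5:**
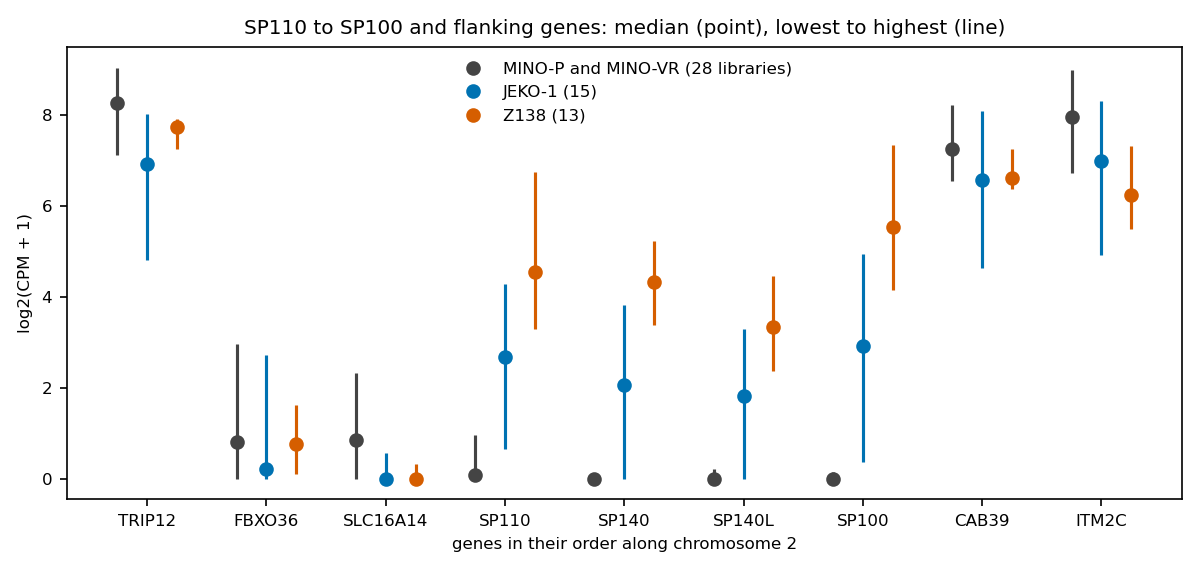
Level, log2(CPM + 1), of SP110, SP140, SP140L, SP100 and flanking genes of chromosome 2 in their order, as median (point) and lowest to highest (line) in the 28 MINO libraries, JEKO-1 and Z138. In MINO the 4 SP genes lie at or near 0 CPM, with SP100 at most 0.0999 CPM, with medians of 308 CPM for TRIP12 and 151 CPM for CAB39 on either side; FBXO36 and SLC16A14 are low in all lines.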

How the data were processed

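RNA of the 56 libraries was isolated with QIAshredder and RNeasy columns and sequenced after poly-A enrichment, per the labels' protocols. The authors deposited log2 values of CPM (counts scaled to the library total) plus 1 for 21596 table rows. The submitters' processing notes name hg38 and Partek; the aligner and counter are not given in the sources used here. A row without a name (at most 0.00077% of a library) was left out. CPM sums were 999984 to 1000009. Low values came out as whole reads (within 0.05 reads) in 76.7% to 89.2% of cases, which gave depth but no counts to test. As the unit was log2, limma 3.58.1 (R 4.3.3) with an intensity trend was fitted to log2(CPM + 1), leaving out genes that did not reach 1 CPM in 2 libraries of the fit, with Benjamini-Hochberg adjustment over all genes and calls at an adjusted p under 0.05. The fit was tested on simulated data.

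Groups are line and treatment from the labels, and replicate numbers follow the order of the series. The genes and lists were chosen with earlier results of these data known. Named genes were the up to 6 called genes with the largest difference in each direction of a test, called pathway genes, the 12 largest and 6 smallest mean MINO differences, and fixed representatives of each role; other named genes, the SP neighbours and the Z138 name sets were picked after values were seen. Libraries of Z138 with the same final letter deviated together (correlations of 0.24 to 0.63 over 10 pairs), so the letter was taken as a block in alternatives. Other alternatives changed the scaling, pseudocount (0.25), filter, weights, averaging of letter pairs, and left out each library. Intervals and floors cover counting error only. 1 pathway gene is not reported here.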

Additional observations from a re-analysis of the deposited data

Results flagged for a closer look

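In 7 genes, the libraries of 1 line lay on 1 side of those they were set against (CON, or IBR for IRF7). Those of the other line lay on the other side, on the log2(CPM + 1) scale. JEKO-1 has 1 library each of CON, S63845 and YM155, so any gene with a difference lies on 1 side there. The share of all genes that did so is not given here, so the number is a description. None of these differences between lines was tested. For S63845 against CON, IFI27 differed by -0.46 in JEKO-1 and by 1.72 in Z138, SAMD9 by -0.30 and 0.69, and SAMD9L by -0.26 and 1.26. For YM155 against CON, IFI16 differed by -0.21 in JEKO-1 and by 0.84 in Z138, TRIM25 by -0.15 and 0.38, and LGALS9 by -0.59 and 2.41. For S63845 against IBR, IRF7 differed by 0.87 in MINO-P and by -0.76 in MINO-VR. The Z138 YM155 library has a name that ends in A.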

How the results depend on the processing

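The count of called genes changed with the processing in some comparisons, and the cause was not tested. The share of all genes called in each altered fit is not given here, so these counts show only the dependence on processing. BTZ against CON in JEKO-1 and Z138 gave 4 calls and 0 without mitochondrial genes, with size factors, with no filter on low values or over cell means, 1 with letter pairs averaged, 17 over all 56 libraries, 21 with array weights, and 0 to 9 leaving out each library. S63845 against IBR in MINO gave 13 calls and 3 with no filter, 35 with array weights, 6 with the replicate block, 0 with letter pairs averaged, and 6 to 34 leaving out each library. IBR against CON gave 2 calls with array weights, IBR_CLF against IBR 15 in JEKO-1 and Z138 and 5 in MINO, where size factors gave 1. IBR against CON in Z138 gave 3 calls with the replicate block, and 3 without mitochondrial genes and 6 with size factors under the block, both chosen after seeing the data. The BTZ difference between lines gave 9 calls with array weights, 1 with the block, and 0 to 3 leaving out each library. The count for JEKO-1 against Z138 was 24 to 33 (25 to 31 leaving out each library), and the block called 26 genes higher and 6 lower. The block moved no other count by more than 1.5 times. The up to 6 called genes per direction of each test kept their sign in every fit, while IFIT2, not called at 0.20 for S63845 against IBR, was called at -0.95 without MCL23. Not fitted were both interactions without the JEKO-1 CON library, the BTZ interaction without Z138 BTZ, and S63845 against IBR without MINO-VR S63845. With 1 to 3 libraries per group, depth (3 reads equal 0.139 to 0.543 CPM) limits genes near 0.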

Other observations

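The JEKO-1 libraries named MCL34 to MCL37 had 43 to 48 of the 53 genes at 10 CPM or more, and those named MCL1 to MCL10a had 18 to 44. In JEKO-1, IFNB1 had 3 reads in the CLF library MCL3 and 24 in MCL34, 7 in YM155, 19 in S63845, and 12, 13 and 0 in BTZ.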
